A study of Homo sapiens with 18 samples.

Results

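LINC00654, APLP1, MPP2, NYNRIN, DMTN and AARD are the 6 genes examined here, out of 58815 genes in the counts table. They were chosen by the size of the falls in RNA that the shWDR5 hairpin gave in all 3 cell lines of the study. Their falls are therefore described below, and no test of them is read. All 6 were found in the table by symbol and all 6 passed the filter on low counts, which left 12287 genes. The cells were LM2, BrM3 and BoM, derivatives of the established triple-negative breast cancer (TNBC) line MDA-MB-231 selected for spread to lung, brain and bone. Each line carried a lentiviral hairpin of the pINDUCER10 vector, either the control shCtrl or shWDR5, and every group, controls included, received doxycycline (DOX) at 1 μg/mL for 3 days to induce it. Each line and hairpin had 3 libraries from different passages, 18 in all. The labels call the brain line BrM2, whereas the study names it BrM3, a line it derived from BrM2 by further selection in mice. The study's name is used here. The cells were selected pools infected at a multiplicity of 1 and grown in culture, and 1 WDR5 hairpin was sequenced, so that loss of WDR5 and other effects of this hairpin cannot be told apart.

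WDR5 is a WD-repeat protein that holds together the KMT2 complexes, which methylate histone H3 at lysine 4 near active promoters, and it also binds the transcription factor MYC. The 6 genes encode unlike products. LINC00654 is a long noncoding RNA. APLP1 is an amyloid precursor-like membrane protein best known from neurons, MPP2 is a membrane-associated guanylate kinase (MAGUK) scaffold, and DMTN, or dematin, bundles actin in the membrane skeleton of red blood cells. NYNRIN carries a NYN ribonuclease domain and an integrase region of retroviral origin, and AARD is a little-studied protein rich in alanine and arginine.

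Promoter sequence was held by the RefSeq table (GRCh38.p14) for 4 of the 6 genes, LINC00654, APLP1, MPP2 and NYNRIN. The 250 bases before each start are shown because WDR5 works at promoters and these genes were lower together. They run 5′ to 3′ along the gene's strand, in lower case with matches to the searched motifs in capitals. RefSeq holds 4 windows for MPP2, and the one at the start of the canonical transcript is shown. The windows are chr20:5504597-5504846 on the minus strand, chr19:35868324-35868573 on the plus strand, chr17:43907537-43907786 on the minus strand and chr14:24398753-24399002 on the plus strand.
LINC00654: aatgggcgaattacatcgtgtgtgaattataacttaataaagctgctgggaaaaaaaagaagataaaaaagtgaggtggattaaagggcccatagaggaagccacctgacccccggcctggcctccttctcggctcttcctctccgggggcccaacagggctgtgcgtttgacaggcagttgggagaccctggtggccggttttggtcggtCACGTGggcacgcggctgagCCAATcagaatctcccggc
APLP1: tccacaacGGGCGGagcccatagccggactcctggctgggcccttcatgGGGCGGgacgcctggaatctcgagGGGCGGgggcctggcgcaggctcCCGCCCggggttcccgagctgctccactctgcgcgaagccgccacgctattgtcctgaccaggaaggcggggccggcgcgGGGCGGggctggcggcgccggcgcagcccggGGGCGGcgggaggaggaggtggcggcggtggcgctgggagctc
MPP2: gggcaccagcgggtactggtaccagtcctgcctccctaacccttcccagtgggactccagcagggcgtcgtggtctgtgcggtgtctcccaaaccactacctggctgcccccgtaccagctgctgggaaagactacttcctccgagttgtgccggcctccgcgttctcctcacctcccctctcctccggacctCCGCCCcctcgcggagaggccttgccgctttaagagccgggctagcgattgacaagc
NYNRIN: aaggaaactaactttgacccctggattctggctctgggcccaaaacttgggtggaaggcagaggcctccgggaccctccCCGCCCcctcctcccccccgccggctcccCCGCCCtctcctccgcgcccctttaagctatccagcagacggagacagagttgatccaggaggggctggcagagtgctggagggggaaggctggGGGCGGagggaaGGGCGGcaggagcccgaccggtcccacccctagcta
The search covered both strands for 8 motifs. These were the E-box CACGTG, which MYC and its relatives bind, the TATA box TATAAA, the CCAAT box CCAAT, the GC box GGGCGG, the ETS core CGGAAG, the CRE TGACGTCA, the AP-1 site TGANTCA and the YY1 site AAGATGGCG. No motif was found in every window shown.

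The LINC00654 window held 1 E-box, whose first base lies at position -39 from the start, and 1 CCAAT box at -19. An E-box stood in 6.34% and a CCAAT box in 32% of the 35116 windows of this length in the table. The RefSeq start of LINC00654 lies 22010 bases inside the start of the canonical GENCODE transcript, so its window is that of a shorter transcript. GC boxes were the matches found in the other windows shown, with 6 for APLP1, 4 for NYNRIN and 1 for MPP2, against 42.6% of all windows with at least 1. The other 3 windows of MPP2 held no GC box, and 1 of them had 2 CCAAT boxes, at -91 and -54. The windows of APLP1, NYNRIN, MPP2 and LINC00654 were 77.2%, 67.6%, 65.2% and 54.8% G and C, and the median of all windows was 58.0%. The motifs with no match in these windows stood in 10.7% (TATA box), 16.5% (ETS core), 1.65% (CRE), 6.57% (AP-1) and 0.652% (YY1) of all windows. A match describes the letters of the window and is no measurement of binding.

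Depth differed widely among the libraries, from 17485841 to 119667013 counts on genes, and both extremes belong to single libraries of BrM3 shWDR5 and LM2 shCtrl. Levels are given as CPM, read counts scaled to a common library size after TMM normalisation. The targeted gene WDR5 was at 79.9 to 134 CPM in the 9 shCtrl libraries and at 13.7 to 24.5 CPM in the 9 shWDR5 libraries. Its log2 fold change was -2.43 ± 0.14 (SE) for LM2, -1.97 ± 0.14 for BrM3 and -2.23 ± 0.14 for BoM. Of the 4 mesenchymal markers, VIM, CD44 and AXL were at 502 CPM or more in every library, but CDH2 was at 0.116 to 0.867 CPM. The hormone receptor genes ESR1 and PGR stayed under 1 CPM and ERBB2 was at 40.6 to 83.3 CPM. The 6 epithelial markers summed to 560 to 972 CPM, with CDH1 under 1 CPM throughout, and the 4 immune markers to 1.18 to 4.62 CPM. DMTN is known from the membrane skeleton of red blood cells. The 8 erythroid markers summed to 0.106 to 0.384 CPM in shCtrl and 0.0391 to 0.348 CPM in shWDR5 libraries, and HBG1 had no count. The 8 neuronal markers summed to 4.56 to 16.5 CPM in shCtrl and 5.01 to 18.8 CPM in shWDR5 libraries. Most of this came from SYT1 at 2.09 to 9.66 CPM, SNAP25 at 0.329 to 7.34 CPM and SYP at 0.549 to 2.44 CPM. RBFOX3, STMN2, GAP43, ELAVL4 and NEFL stayed under 1 CPM. In bulk RNA, fewer cells with a transcript and less of it per cell cannot be told apart.

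The genes were of low abundance. Their mean levels over the 18 libraries lay between the 5.07th percentile (DMTN) and the 15.5th percentile (MPP2) of the tested genes, against the 69.1st percentile for WDR5. MPP2 averaged 5.27 CPM, NYNRIN 3.39 CPM, APLP1 2.87 CPM, AARD 2.67 CPM, LINC00654 2.50 CPM and DMTN 2.43 CPM, while the median tested gene was at 30.3 CPM. Counting error is thus a large part of the error of several values below.

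LINC00654 (ENSG00000205181, chromosome 20 from 5482736 to 5526709, minus strand, GRCh38) was highest in LM2. In LM2 it was at 8.42, 8.76 and 8.05 CPM in the shCtrl libraries and at 3.79, 3.38 and 2.20 CPM in the shWDR5 libraries. In BrM3 it was at 0.516, 0.354 and 0.546 CPM with shCtrl and at 0.0580, 0.0343 and 0.0604 CPM with shWDR5. In BoM the shCtrl libraries held 2.98, 2.20 and 1.69 CPM and the shWDR5 libraries 0.919, 0.509 and 0.607 CPM. The 2 hairpin groups did not overlap in any line, and 2 of the 3 LM2 libraries with shWDR5 stood above every BoM library with shCtrl. The shWDR5 mean was 37.1% of the shCtrl mean in LM2 and 29.6% in BoM. In BrM3 the percentage rests on 60 reads in the 3 shCtrl libraries and 5 reads in the 3 shWDR5 libraries, a ratio of 11.0% after scaling with a 95% exact binomial interval, for counting error only, of 3.44% to 27.1%. The fitted log2 fold change was -1.41 ± 0.21 for LM2, -3.16 ± 0.49 for BrM3 and -1.74 ± 0.26 for BoM. The BrM3 value was -1.68 once every library was thinned to the smallest total. Of the genes that overlap LINC00654, ENSG00000266908 had at most 2 counts in a library and LINC01729 had 0.

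APLP1 (ENSG00000105290, chromosome 19 from 35867899 to 35879792, plus strand) was the most even of the genes across the lines. In LM2 its levels were 3.61, 4.71 and 5.75 CPM with shCtrl and 1.34, 1.38 and 1.93 CPM with shWDR5. In BrM3 they were 3.30, 3.14 and 3.17 CPM with shCtrl and 0.870, 0.824 and 1.11 CPM with shWDR5. In BoM they were 5.88, 6.59 and 4.51 CPM with shCtrl and 1.23, 0.939 and 1.33 CPM with shWDR5. All 9 shWDR5 libraries stood below all 9 shCtrl libraries, whatever the line. The shWDR5 mean was 33.0% of shCtrl in LM2, 29.2% in BrM3 and 20.6% in BoM, with log2 fold changes of -1.67 ± 0.19, -1.79 ± 0.21 and -2.28 ± 0.21. NPHS1, on the opposite strand, overlaps APLP1 and had at most 3 counts in a library.

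MPP2 (ENSG00000108852, chromosome 17 from 43875357 to 43909711, minus strand) had the highest level of the 6 genes. In LM2 it was at 3.61, 4.597 and 4.13 CPM in shCtrl and at 1.39, 1.03 and 1.43 CPM in shWDR5 libraries. In BrM3 it was at 7.67, 7.61 and 8.45 CPM in shCtrl and at 1.97, 2.68 and 3.14 CPM in shWDR5 libraries. In BoM it was at 14.2, 13.8 and 10.1 CPM in shCtrl and at 2.86, 4.07 and 2.01 CPM in shWDR5 libraries. The groups were apart in each line, although the highest BoM library with shWDR5 was above the lowest LM2 library with shCtrl. The shWDR5 mean was 31.2%, 32.8% and 23.5% of shCtrl in LM2, BrM3 and BoM. The log2 fold changes were -1.74 ± 0.22, -1.62 ± 0.21 and -2.11 ± 0.21.

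NYNRIN (ENSG00000205978, chromosome 14 from 24399003 to 24419283, plus strand) was chiefly a BrM3 transcript. In LM2 it was at 0.470, 0.652 and 0.700 CPM with shCtrl and at 0.297, 0.227 and 0.220 CPM with shWDR5, from 4 to 15 reads per shWDR5 library. In BrM3 it was at 11.4, 11.2 and 11.4 CPM with shCtrl and at 4.93, 5.32 and 5.54 CPM with shWDR5. In BoM it was at 2.37, 2.94 and 2.44 CPM with shCtrl and at 0.447, 0.274 and 0.342 CPM with shWDR5. Each line's groups were apart, and the shWDR5 libraries of BrM3 still held more NYNRIN than any shCtrl library of LM2 or BoM. The shWDR5 mean was 40.9%, 46.6% and 13.7% of shCtrl in LM2, BrM3 and BoM. The fitted log2 values were -1.34 ± 0.21, -1.14 ± 0.14 and -2.83 ± 0.19 in the same order. In BoM the gene ranked first by size of fall among the 12287 genes, against 161st in BrM3.

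DMTN (ENSG00000158856, chromosome 8 from 22048995 to 22082527, plus strand) was highest in LM2. There it was at 5.35, 7.61 and 8.37 CPM with shCtrl and at 3.74, 3.26 and 3.63 CPM with shWDR5. In BrM3 it was at 2.08, 1.49 and 1.85 CPM with shCtrl and at 0.232, 0.549 and 0.564 CPM with shWDR5. In BoM it was at 1.24, 1.53 and 1.36 CPM with shCtrl and at 0.263, 0.117 and 0.455 CPM with shWDR5. The groups did not overlap within a line, and the LM2 libraries with shWDR5 stood above all BrM3 and BoM libraries of either hairpin. The shWDR5 libraries held 4 to 28 reads in BrM3 and 3 to 12 reads in BoM. The shWDR5 mean was 49.8% of shCtrl in LM2, 24.8% in BrM3 and 20.2% in BoM, with log2 fold changes of -1.03 ± 0.22, -1.94 ± 0.29 and -2.30 ± 0.33. Counting error alone left a 95% interval of 19.6% to 37.5% around the ratio of summed reads in BrM3 and of 12.6% to 31.1% in BoM.

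AARD (ENSG00000205002, chromosome 8 from 116938207 to 116944487, plus strand) was highest in BrM3. In LM2 its levels were 2.20, 1.69 and 2.46 CPM in shCtrl and 0.718, 0.894 and 1.05 CPM in shWDR5 libraries. In BrM3 they were 6.003, 5.44 and 6.58 CPM in shCtrl and 2.09, 2.57 and 2.42 CPM in shWDR5 libraries. In BoM they were 3.86, 3.91 and 3.57 CPM in shCtrl and 0.735, 0.978 and 0.949 CPM in shWDR5 libraries. The hairpin groups were apart in every line, and the replicates lay closer together on the log2 scale in BrM3 and BoM than in LM2. The shWDR5 mean was 41.8%, 39.3% and 23.5% of shCtrl in LM2, BrM3 and BoM. The log2 fold changes were -1.31 ± 0.18, -1.38 ± 0.16 and -2.12 ± 0.19.

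**Figure D1:**
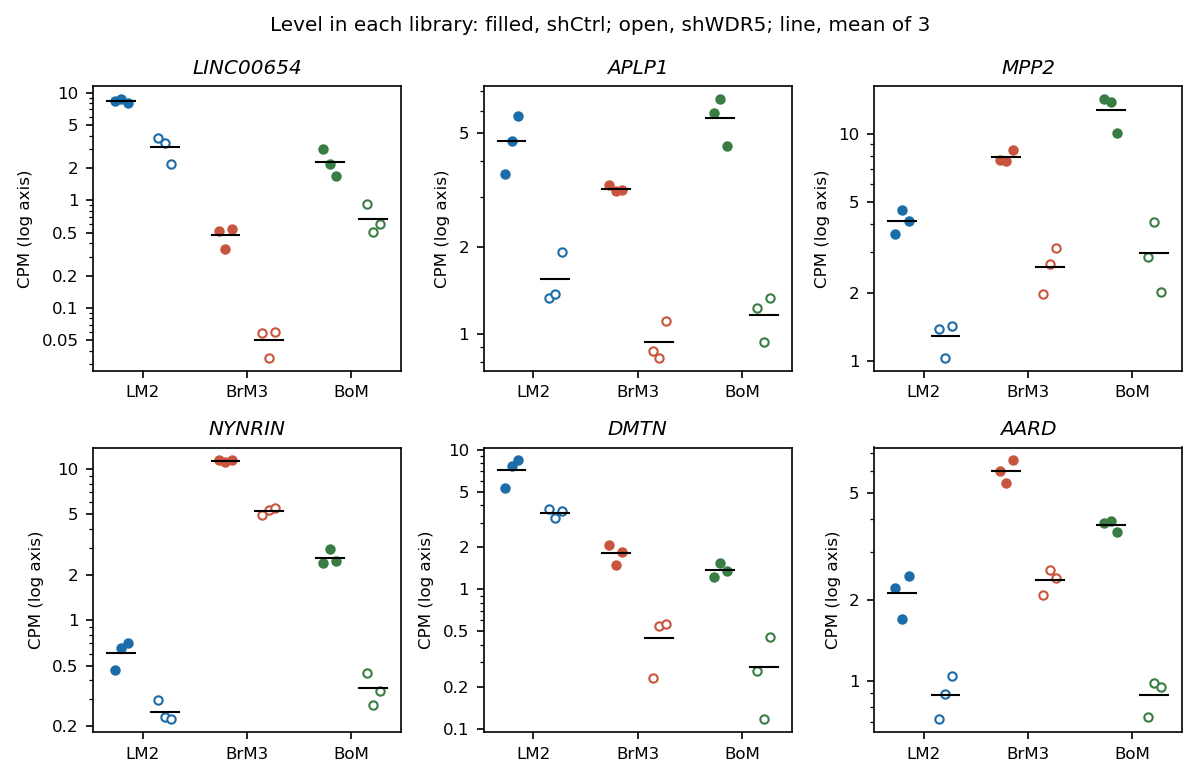
Level of each gene in each of the 18 libraries, in CPM on a log axis, by line, with filled points for shCtrl, open points for shWDR5 and a line at the mean of 3 libraries. In every panel and line the 3 open points lie below the 3 filled points, and the shCtrl means span the widest gaps for NYNRIN, from 11.3 CPM in BrM3 to 0.607 CPM in LM2, and for LINC00654, from 8.41 CPM in LM2 to 0.472 CPM in BrM3.

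Since each gene had been chosen for falling in all 3 lines, the absence of overlap is a description. Over all tested genes, the 3 shWDR5 libraries lay below the 3 shCtrl libraries for 13.5% in LM2, 16.4% in BrM3 and 15.5% in BoM. By edgeR's quasi-likelihood test with Benjamini-Hochberg adjustment, 4.84% of tested genes in LM2 were lower with shWDR5, as were 8.02% in BrM3 and 10.8% in BoM, while 1.5%, 2.94% and 5.41% were higher. Blocking on the replicate pairs gave 1399 higher genes in BoM, where 665 were higher without it. Of the 12287 tested genes, 404 were lower in all 3 lines, the 6 genes among them. Their calls come from the values they were chosen by and are no test of them. Over 24 alternatives per line, LINC00654 missed the threshold in BrM3 in 1, DMTN in LM2 in 1 and NYNRIN in LM2 in 2. BoM had the largest fall of the 3 lines for 5 of the 6 genes, the exception being LINC00654. The fits over all tested genes included the 6, but no test of a difference between lines is read for genes chosen this way. Among tested genes, BoM also had the largest share of lower genes.

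Ranked by the mean of the 3 log2 fold changes among those 404 genes, WDR5 came first at -2.21. LINC00654 ranked 2nd at -2.10, APLP1 3rd at -1.92, MPP2 5th at -1.82, NYNRIN 6th at -1.77, DMTN 7th at -1.76 and AARD 12th at -1.60. The list is thus not the exact top of the ranking. SLC4A3, an anion exchanger, ranked 4th at -1.91, with a highest normalised count of 137, just over the filter at 130. CELSR2, PYGL, SPINT1 and CCDC136 ranked 8th to 11th, from -1.70 to -1.64. These 5 names were taken after their values were seen. Just outside AARD came NME4 at -1.59, PIK3AP1 at -1.58 and GYG2 at -1.57, so that AARD and NME4 stood next to each other with nearly equal means.

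**Figure D2:**
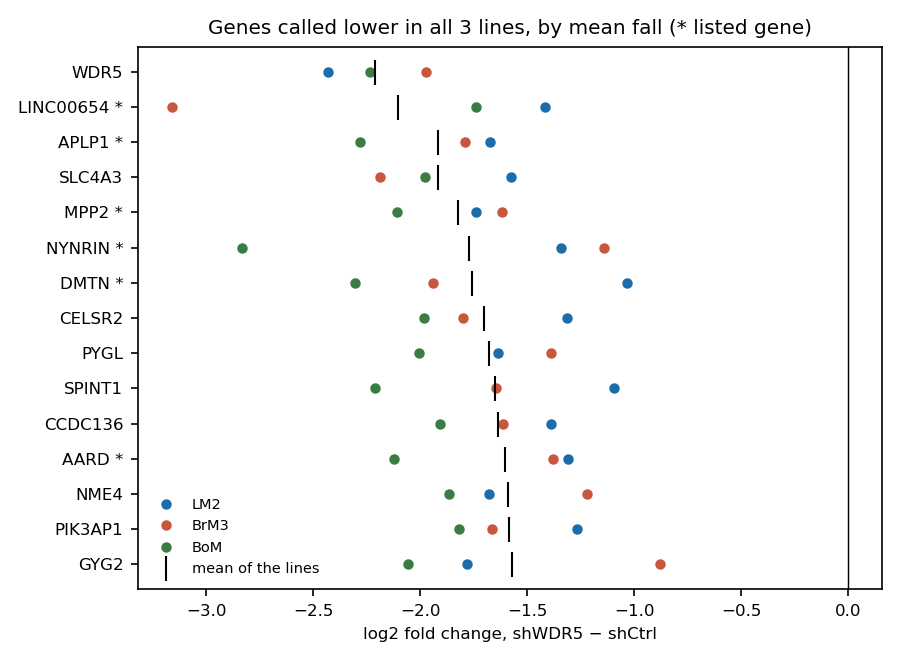
Log2 fold change of shWDR5 against shCtrl in LM2, BrM3 and BoM (coloured points) and their mean (bar) for the 15 genes with the largest mean fall among the 404 lower in all lines, with an asterisk on the listed genes. The means run from -2.21 for WDR5 to -1.57 for GYG2 with no break below the listed genes, and LINC00654 in BrM3 and NYNRIN in BoM lie farthest to the left.

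The level of the genes before knockdown was set side by side in the shCtrl libraries of the 3 lines. These libraries are also one side of every fall, and the filter asked for a high count in 1 library only, so the differences are described and were not tested. LINC00654 and DMTN passed the filter through LM2 alone and NYNRIN through BrM3 alone, AARD passed through BrM3 and BoM, and APLP1 and MPP2 through each line. LINC00654 was 18.01-fold lower in BrM3 than in LM2 (log2 difference -4.17 ± 0.25, SE). NYNRIN had the opposite order and was 17.5-fold higher in BrM3 than in LM2 (4.13 ± 0.16). In both genes BoM lay in between, with LINC00654 3.63-fold lower than in LM2 (-1.86 ± 0.21) and NYNRIN 4.09-fold higher (2.03 ± 0.16).

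DMTN was 4.02-fold lower in BrM3 (log2 difference -2.01 ± 0.23) and 5.195-fold lower in BoM (-2.38 ± 0.24) than in LM2. The shCtrl libraries of BoM and BrM3 overlapped for DMTN, with a log2 difference of -0.37 ± 0.25. AARD was lowest in LM2, being 2.78-fold higher in BrM3 (1.47 ± 0.16) and 1.78-fold higher in BoM (0.83 ± 0.16) than in LM2, and 1.56-fold lower in BoM than in BrM3 (-0.64 ± 0.16). MPP2 was also lowest in LM2, with levels 1.88-fold higher in BrM3 (0.91 ± 0.20) and 3.07-fold higher in BoM (1.62 ± 0.20). The step from BrM3 to BoM was 0.71 ± 0.19 for MPP2.

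APLP1 was 1.51-fold lower in BrM3 than in LM2 (-0.59 ± 0.18) and 1.80-fold higher in BoM than in BrM3 (0.85 ± 0.18). Its BoM and LM2 libraries overlapped, at a log2 difference of 0.26 ± 0.18. The lines thus had no common order for the 6 genes. LINC00654 and DMTN were highest in LM2, NYNRIN and AARD in BrM3, MPP2 in BoM, and APLP1 in BoM and LM2.

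**Figure D3:**
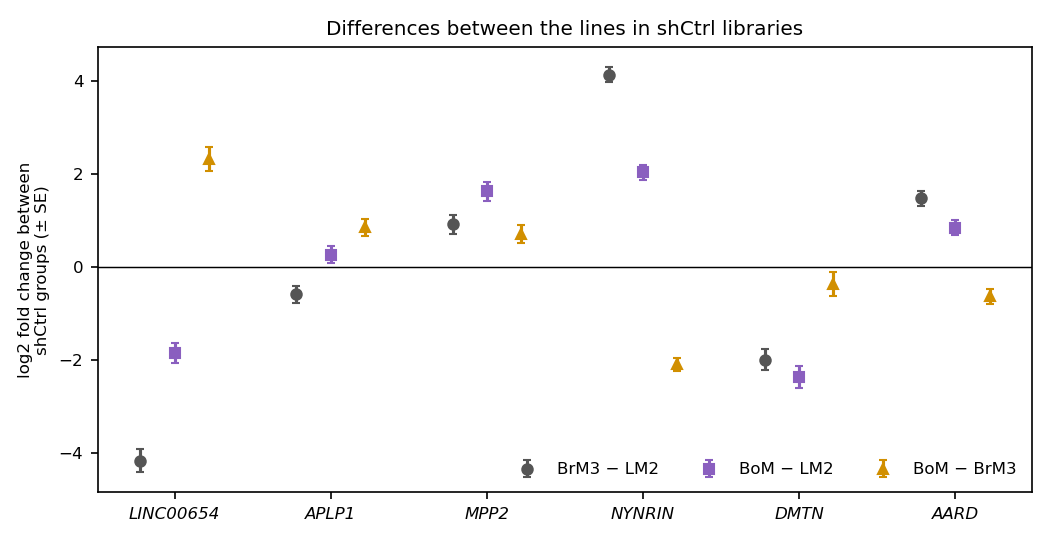
Log2 difference between the shCtrl groups of each pair of lines, with bars of 1 standard error, for the 6 genes. LINC00654 and NYNRIN lie farthest from 0 and on opposite sides, at -4.17 and 4.13 for BrM3 against LM2, and the APLP1 points lie between -0.59 and 0.85.

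Levels were also divided by annotated exon length to set the genes side by side. That length joins the exons of all annotated transcripts of a gene. Which transcripts these cells make was not examined, so the order between genes is approximate. Per kilobase, DMTN was the highest of the 6 in LM2 shCtrl libraries at 1.57 ± 0.347 CPM per kilobase (SD, n = 3). APLP1 followed at 1.33 ± 0.302 CPM per kilobase, within the spread of DMTN, and NYNRIN was lowest at 0.0785 ± 0.0157. In BrM3 the first was AARD at 2.50 ± 0.238 CPM per kilobase and the last LINC00654 at 0.0584 ± 0.0128. In BoM it was MPP2 at 2.09 ± 0.378 CPM per kilobase, while APLP1 at 1.60 ± 0.298 and AARD at 1.57 ± 0.0763 did not differ beyond their spread. LINC00654, DMTN and NYNRIN closed the BoM order at 0.283 ± 0.0802, 0.305 ± 0.0330 and 0.334 ± 0.0397 CPM per kilobase, again within their spread. WDR5 itself was at 23.7 to 33.7 CPM per kilobase in the shCtrl groups.

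Relatives and partners of the genes were examined in 4 lists of 66 genes, of which 53 passed the filter. Over the lists, 5 genes were lower with shWDR5 in LM2, 9 in BrM3 and 13 in BoM, or 9.43%, 17% and 24.5% of those tested, against 4.84%, 8.02% and 10.8% of all tested genes. In each line 1 gene was higher, or 1.89%, and in BoM 6 were once replicate pairs were blocked. The median log2 fold change over the lists was 0.01 for LM2, -0.05 for BrM3 and -0.01 for BoM, and over all tested genes 0.00, -0.01 and 0.02. Most relatives thus did not pass the test. Among those that passed in all 3 lines were APH1B, APBB1, DLG3 and EPB41L1, each lower in every line. The LM2 count was the least firm, at 2 with no filter, 1 with LM2 fitted alone and 3 without LM2 shCtrl replicate 2 or 3 or without LM2 shWDR5 replicate 1 or 2. In BoM fitted alone, 8 were lower.

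APLP1 belongs to the amyloid precursor protein (APP) family, whose members are cut by secretases and bound at their tails by adaptors of the APBB and APBA families. Of its 18 listed relatives, all tested, 2 were lower in LM2, 3 in BrM3 and 4 in BoM. APP itself had log2 fold changes of 0.05, -0.06 and 0.01 in LM2, BrM3 and BoM, none past the threshold, and APLP2 was higher in LM2 at 0.29 ± 0.08 (adjusted p = 0.0282, edgeR). APH1B, a subunit of γ-secretase, was at 14.5, 12.6 and 13.3 CPM with shCtrl and 9.68, 9.79 and 9.35 CPM with shWDR5 in LM2. Its log2 fold change was -0.50 ± 0.10 for LM2, -0.58 ± 0.10 for BrM3 and -0.81 ± 0.10 for BoM, where it went from 11.2 ± 0.556 to 6.47 ± 0.253 CPM (SD, n = 3). The groups of APH1B did not overlap in any line. The adaptor APBB1 had log2 fold changes of -0.44 ± 0.13, -0.70 ± 0.13 and -0.64 ± 0.13, but its LM2 groups overlapped and its adjusted p there was 0.0491 by edgeR, which missed the threshold in 18 of 24 alternatives (0.00857 to 0.203). NCSTN, another γ-secretase subunit, was lower in BrM3 at -0.32 ± 0.07, and the protease BACE2 and the adaptor APBA1 in BoM at -0.32 ± 0.07 and -1.80 ± 0.33.

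MPP2 is a scaffold of the MAGUK family, with the DLG and CASK proteins and the LIN7 partners as relatives. Of 15 listed genes, 12 were tested and 1 was lower in LM2, 1 in BrM3 and 2 in BoM. DLG3, a synapse-associated scaffold, was the one that passed in every line. It was at 28.0, 31.1 and 31.2 CPM with shCtrl and 21.1, 21.0 and 23.6 CPM with shWDR5 in LM2. In BoM it went from 22.3, 23.2 and 20.3 CPM to 11.1, 10.5 and 7.93 CPM. The log2 fold change of DLG3 was -0.48 ± 0.11 for LM2, -0.87 ± 0.12 for BrM3 and -1.16 ± 0.12 for BoM, with no overlap of groups in any line. MPP1 was lower in BoM at -0.28 ± 0.08 (adjusted p = 0.0309, edgeR), and MPP3, MPP4, MPP5, MPP6, MPP7, CASK, DLG1, DLG4, DLG5 and LIN7C did not pass in a line.

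DMTN shares the membrane skeleton with spectrins, ankyrins, adducins and proteins of the band 4.1 family, and an actin-binding headpiece with villin relatives. Of these 26 genes, 18 were tested, and 2 were lower in LM2, 5 in BrM3 and 7 in BoM. EPB41L1, a band 4.1 relative, had log2 fold changes of -0.91 ± 0.11, -0.86 ± 0.11 and -1.29 ± 0.11 in LM2, BrM3 and BoM. In BoM its 3 libraries went from 23.1, 21.8 and 19.8 CPM to 9.59, 9.54 and 7.48 CPM. The groups of EPB41L1 were apart in each line.

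EPB41, ANK1 and ANK2 were lower in BrM3, at -0.55 ± 0.12, -0.50 ± 0.13 and -0.57 ± 0.15, and in BoM, at -0.51 ± 0.12, -0.39 ± 0.12 and -0.57 ± 0.15. ADD2 and ANK3 were lower in BoM at -1.16 ± 0.18 and -0.53 ± 0.17. The one gene of this list in the other direction was EPB41L2, higher in BrM3 at 0.32 ± 0.09 and in BoM at 0.31 ± 0.09. The abundant spectrins SPTAN1 and SPTBN1 had log2 fold changes between 0.09 and 0.36 and passed in no line. NYNRIN's relatives, the NYN domain and ZC3H12 ribonucleases, were 7 genes with 5 tested, of which 0 passed with edgeR in a line, while 1 in BoM had an unadjusted p under 0.05 and 1 there was called by DESeq2. Among these 5 genes, MARF1 had the smallest unadjusted p in LM2 (log2 fold change 0.15 ± 0.11) and in BoM (0.29 ± 0.11), and ZC3H12C in BrM3 (0.30 ± 0.18).

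**Figure D4:**
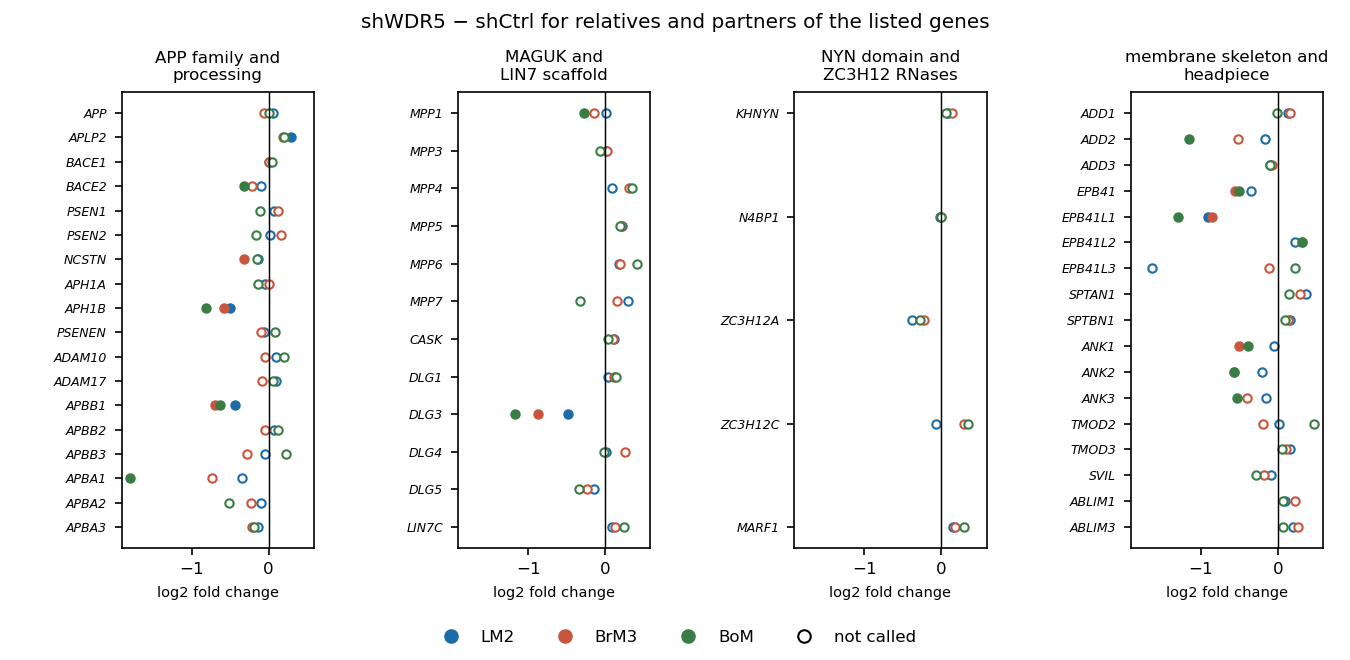
Log2 fold change of shWDR5 against shCtrl for tested relatives in 4 lists, with 1 colour per line and filled points where the edgeR adjusted p is under 0.05. APH1B, APBB1, DLG3 and EPB41L1 have filled points in all 3 lines, and the NYN and ZC3H12 panel has none.

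The responses of the relatives were also compared between the lines. By edgeR, 0 of the 53 tested relatives differed in response between any pair of lines after adjustment, while 2 (BrM3 against LM2), 9 (BoM against LM2) and 5 (BoM against BrM3) had an unadjusted p under 0.05. DESeq2 called 1 between BoM and LM2 and 0 in the other pairs. Over all tested genes, the shares past the threshold were 0.00814%, 0% and 0.00814%, which is 1, 0 and 1 gene. The single genes were ARMCX2 and NYNRIN. Since NYNRIN had been chosen by its falls, its call comes from the same values and is no test of it.

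Genes close to the 6 on the chromosome were examined next, since position was not used in the choice. Within 200 kb of the gene bodies, 38 other genes passed the filter, from 1 beside LINC00654 to 12 beside NYNRIN. In LM2, 0 were lower and 1 was higher by edgeR, with 6 and 1 at an unadjusted p under 0.05 and 0 and 1 by DESeq2. In BrM3, 2 were lower, or 5.26%, and in BoM 3, or 7.89%, against 8.02% and 10.8% of all tested genes. None was higher there by edgeR, and 1 in each line was by DESeq2 and at an unadjusted p under 0.05. The median log2 fold change of the 38 neighbours was -0.04 for LM2, -0.06 for BrM3 and -0.07 for BoM. Of the 19 genes near LINC00654, APLP1, DMTN and AARD, 0 passed with edgeR or DESeq2 in a line. An unadjusted p under 0.05 by edgeR was seen for 3 in LM2, all of them lower and all near APLP1.

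NFATC4, a calcium-regulated transcription factor of the NFAT family, lies 19399 bases from NYNRIN on the same strand and had the largest changes of the neighbours. In BrM3 it was at 13.1, 12.1 and 11.4 CPM with shCtrl and at 3.02, 4.67 and 5.10 CPM with shWDR5. In BoM it was at 1.97, 2.54 and 3.24 CPM with shCtrl and at 0.263, 0.117 and 1.63 CPM with shWDR5, and in LM2 at 0.614, 0.702 and 0.920 CPM with shCtrl and at 0.148, 0.106 and 0.550 CPM with shWDR5. The groups were apart in each line, with 6 to 10 reads per shWDR5 library in LM2. The log2 fold change of NFATC4 was -1.54 ± 0.41 in BrM3 (adjusted p = 0.0229, edgeR), -1.99 ± 0.53 in BoM (0.0171) and -1.98 ± 0.67 in LM2, where it did not pass (0.0917) and missed the threshold in 20 of 24 alternatives (9.73e-07 to 0.374). The calls in BrM3 and BoM were not firm, since the adjusted p missed the threshold in 7 of 24 alternatives in BrM3 (up to 0.101, with DESeq2 and without each single BrM3 library) and in 3 of 24 in BoM (up to 0.0753, with BoM fitted alone and without BoM shWDR5 replicate 1 or 2).

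Across the shCtrl groups, NFATC4 was at 0.745 ± 0.157, 12.2 ± 0.810 and 2.58 ± 0.639 CPM (SD, n = 3) in LM2, BrM3 and BoM, beside 0.607 ± 0.121, 11.3 ± 0.122 and 2.58 ± 0.307 CPM for NYNRIN. Between BrM3 and LM2 the log2 difference of NFATC4 was 3.95 ± 0.47. The other called neighbours were TMEM101 and HDAC5 near MPP2 and TINF2 near NYNRIN. TMEM101, 101477 bases from MPP2, was lower in BrM3 at -0.38 ± 0.10 and in BoM at -0.36 ± 0.10, and HDAC5, a class II histone deacetylase, in BoM at -0.70 ± 0.21. TINF2, a subunit of the telomere-capping shelterin complex 156340 bases from NYNRIN, was higher in LM2 at 0.38 ± 0.10. These calls too depended on single settings, with the threshold missed in 7 of 24 alternatives for TMEM101 in BrM3, 5 in BoM, 5 for HDAC5 in BoM and 8 for TINF2 in LM2.

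**Figure D5:**
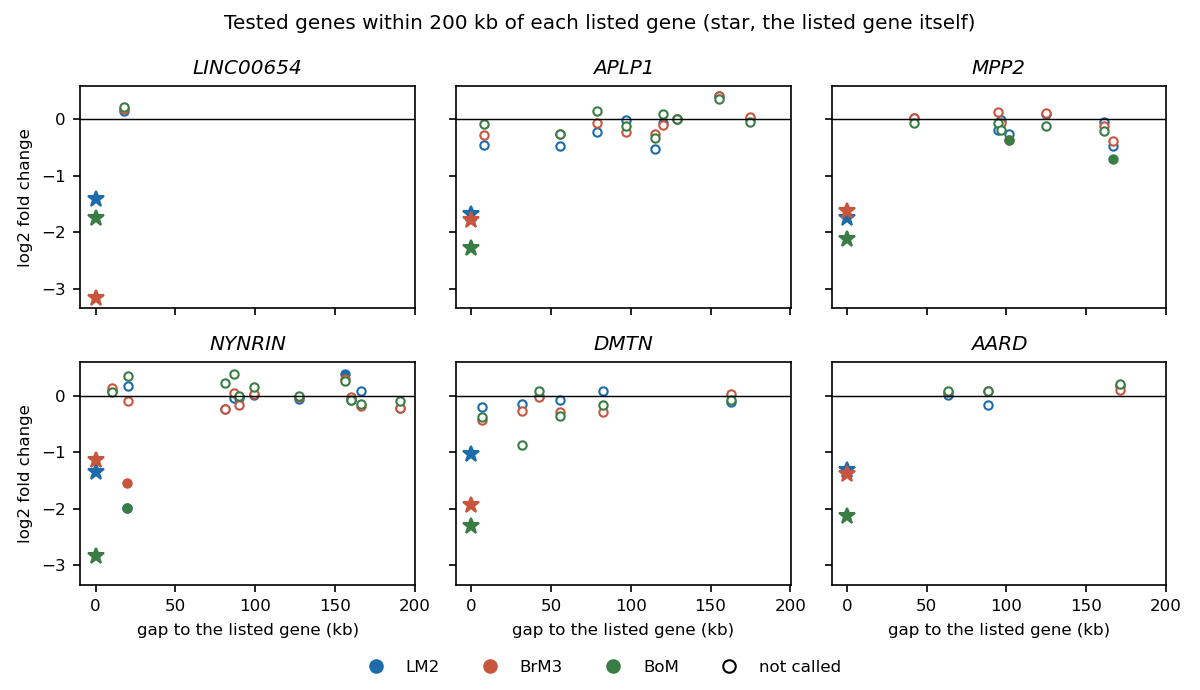
Log2 fold change of tested genes within 200 kb of each listed gene against the gap between the gene bodies in kilobases, with stars for the listed gene itself, 1 colour per line and filled circles where the edgeR adjusted p is under 0.05. Most neighbours lie near 0, and NFATC4 beside NYNRIN is the one with points below -1, with its LM2 point hidden behind that of BoM.

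The profile over the 18 libraries was also set beside those of all other tested genes, by the root mean square difference of log2 CPM after centring each gene on its mean. This likeness covers line and hairpin together, and the libraries share depth and passage, so it is a description. The gene nearest to the mean profile of the 6 was PYGL, the liver form of glycogen phosphorylase, at 0.21, followed by TCTN2 at 0.31 and PICK1 at 0.33, against a median of 0.98 over all genes. The nearest single genes were NLRP2 for LINC00654 (0.74), CA11 for APLP1 (0.37), PIK3AP1 for MPP2 (0.35), FGFR4 for NYNRIN (0.60), PPFIA4 for DMTN (0.52) and IFNLR1 for AARD (0.24). The 6 genes had 6 different nearest genes.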

How the data were processed

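RNA-seq counts of 18 libraries were used. Per the labels and the study's methods, libraries were made with a stranded mRNA kit, and the authors deposited raw counts per gene from paired-end reads aligned to hg38 with STAR 2.7.0. The submitters' processing notes also name CASAVA 1.8.2 and DESeq2. The strand setting of the counting was not given in the sources used here. A second deposited table holds the authors' own DESeq2 log2 fold changes and adjusted p-values per line and was not used. The number of per-sample columns not used was 0. Groups came from the sample titles and cell line labels. The labels of the source material contradict these and were not used. The counts table codes the hairpins as wd, read as shWDR5, and ad, read as shCtrl because it is the other code. Spike-in RNA was added by the authors, but the table has no spike-in rows, so libraries were scaled by TMM and a change in total RNA per cell would not be seen. The study reports that its own spike-in normalisation found global RNA unchanged by the knockdown, which could not be checked here.

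The criterion of HTSFilter was recomputed. The threshold on a gene's highest normalised count, over 100 steps from 1 to 200, that gave the highest smoothed Jaccard index between replicates (0.970) was 130. The model was edgeR 4.0.16 under R 4.3.3 (quasi-likelihood, 6 groups, 12 residual degrees of freedom), with Benjamini-Hochberg adjustment over 12287 genes and a threshold of 0.05. Standard errors follow from the F value of the reported p. DESeq2 1.42.0, other filters, the replicate number as a block, each line alone, thinning and leaving out each library were the alternatives. The code was tested on simulated data. A test of the 6 genes between the shCtrl groups had been planned and was dropped, since those libraries enter the falls and 3 of the genes passed the filter through 1 line only.

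Total counts ranged from 17485841 to 119667013. Replicate pairs within groups differed by a chi-square per gene of 5.09 to 89.2, above sampling noise, so each library counts as 1 replicate. Replicates came from different passages, and p-values measure the spread between such cultures of the same selected cells. The labels do not say that replicate numbers mark shared cultures. Deviations of same-numbered libraries of a line correlated by 0.359 on average (-0.167 to 0.725, n = 9 pairs), against -0.193 for differently numbered ones (n = 18). Deviations were taken from each group's own mean, which by itself pushes one average below 0 when the other is above it. The second average is thus not separate evidence of pairing. In BoM each pair was over 0.1 (0.160 to 0.553), so there the numbers were read as pairs. The same-numbered pairs of LM2 ran from 0.0427 to 0.725, so BoM is not clearly set apart. The main fit used no block in any line, so its BoM p-values ignore the pairing, and the block was run as an alternative.

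The 6 genes, the lists of relatives and the tests were chosen with earlier results of these data known. Named genes are the 6 genes and WDR5, the next 3 in rank, relatives called in all lines and the one with the smallest p per list and line, called neighbours within 200 kb, the nearest profiles (log2 CPM, prior count 2), and markers. BACE2, NCSTN, APBA1, APLP2, APP, MPP1, EPB41, EPB41L2, ANK1, ANK2, ANK3, ADD2, SPTAN1 and SPTBN1 were named after their values were seen, as were the other genes whose rank or count the text singles out. Coordinates and exon lengths are from GENCODE 44 on GRCh38, and promoter windows from RefSeq. One listed relative is counted in its list but is not reported here by itself.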

Additional observations from a re-analysis of the deposited data

How the results depend on the processing

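The 6 genes kept their direction in all 3 lines under every alternative run. They had been chosen by falls in these same libraries, so the kept direction is a description and no test of the falls. The alternatives were DESeq2, edgeR's filterByExpr (18428 genes), no filter (41236 genes), the replicate block, each line fitted alone, thinning to 17485841 counts and leaving out each library. Calls were lost for LINC00654 in BrM3 with thinning, for NYNRIN in LM2 with thinning and with LM2 alone, and for DMTN in LM2 without LM2 shWDR5 replicate 2. The difference between shCtrl groups was not fitted with each line alone, and kept its direction for the 6 genes under the 23 other alternatives. Thinning moved 6 of the falls by more than 1 SD of the replicates, namely MPP2 in LM2 (-2.02), LINC00654 (-1.68), NYNRIN (-1.22) and DMTN (-2.43) in BrM3, and NYNRIN (-3.36) and AARD (-2.46) in BoM.

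The counts of calls over all genes and among relatives and neighbours moved more, and the cause was not tested beyond what the settings themselves change. DESeq2 gave 415, 647 and 1089 higher genes in LM2, BrM3 and BoM (184, 361 and 665 in edgeR), 2, 2 and 6 higher relatives, 5 called neighbours in BoM and 1 relative with a different response between BoM and LM2. The filterByExpr setting gave 2 higher relatives in LM2 and 5 neighbours in BoM. Without a filter, 2 relatives were lower in LM2 and 0 higher in BrM3. Each line alone gave 223 lower and 67 higher genes in LM2, 596 higher in BrM3, and 734 lower and 204 higher in BoM (595, 184, 361, 1326 and 665 in edgeR). It gave 1 lower and 0 higher relatives in LM2, 2 higher in BrM3, 8 lower and 0 higher in BoM, and 0 and 1 called neighbours in LM2 and BoM.

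Same-numbered libraries correlated above 0.1 in each BoM pair, but in 2 of 3 pairs in LM2 and in BrM3, where the samples were taken to share a number only. There, 4 and 3 of 6 libraries correlated best with their own number. With the number as a replicate block, 989 genes were lower and 476 higher in LM2, 1546 and 788 in BrM3, and 1399 higher in BoM. APLP1, MPP2 and the others of the 6 genes, chosen by falls in these libraries, stayed lower in each line. The block gave 2 higher relatives and 2 called neighbours in LM2 and 6 higher relatives in BoM, and NFATC4 in LM2 (adjusted p = 0.0436, edgeR) and TINF2 in BrM3 (0.0427) then passed. In BoM the calls of NFATC4, TMEM101, HDAC5, APH1B, APBB1, DLG3 and EPB41L1 held under the block.

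Leaving out 1 library at a time gave 314 (without LM2 shWDR5 replicate 2) to 739 lower and 63 to 275 higher genes in LM2, 609 to 1094 lower and 125 to 529 higher in BrM3, and 250 to 908 higher in BoM. Lower relatives in LM2 ranged from 3 to 5, and higher relatives from 0 to 2, 0 to 2 and 0 to 3 in LM2, BrM3 and BoM. Called neighbours ranged from 0 to 2, 0 to 3 and 1 to 4 in the same order. For APH1B, APBB1, DLG3 and EPB41L1, the calls in BrM3 and BoM passed in all 24 alternatives, and in LM2 the call was missed in 18 (APBB1), 6 (DLG3), 2 (APH1B) and 0 (EPB41L1). The difference of APLP1 between BrM3 and LM2 ranged from -0.72 to -0.43.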

Other observations

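By mean log2 fold change alone, without asking for a call in each line, further genes stood among the listed 6. MUC5B, a gel-forming mucin, was at -1.90, NDRG2 at -1.88, DCAF8L1 at -1.85, the water channel AQP5 at -1.84, NFATC4 at -1.84, HOOK1 at -1.72 and SLCO4C1 at -1.60. Each was lower on average by as much as MPP2 or AARD but did not pass the edgeR threshold in all 3 lines. They were named after their values were seen.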
